A study of Rattus norvegicus with 325 samples.

Results

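The 8 genes described here are the PGC-1 coactivators and the nuclear factors through which they drive mitochondrial biogenesis: Ppargc1a, Ppargc1b, Esrra, Esrrb, Esrrg, Nrf1, Tfam and Gabpa. They were taken by symbol from the 17315 gene symbols in the count tables, in a choice made with earlier results of these data known. The libraries came from the diaphragm, gastrocnemius, soleus and tibialis anterior of male Sprague Dawley rats at 6, 9, 12 and 18 and at 21, 24 and 27 months of age, making 28 groups of 9 to 13 libraries, and 83, 73, 84 and 85 libraries per muscle in this order. The rats received no treatment, were bought as weanlings and aged at the supplier, and the 6-month rats served as the reference. All tissues of an age were collected on 1 day, so age and collection day cannot be told apart, and the labels do not say which animal a library came from. P-values therefore measure the spread between these libraries.

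PGC-1α (Ppargc1a) and PGC-1β (Ppargc1b) are coactivators: they bind no DNA themselves but are recruited to promoters by transcription factors. Their main partners in muscle are the oestrogen-related receptors ERRα, ERRβ and ERRγ (Esrra, Esrrb, Esrrg), NRF1 and the ETS factor GABPα (Gabpa), which activate nuclear genes of the respiratory chain, the citric acid cycle and fatty acid oxidation. NRF1 and GABP also activate Tfam, whose protein packages mitochondrial DNA and starts its transcription. Slow oxidative muscles such as the soleus depend on this programme more than fast glycolytic ones, and endurance exercise raises Ppargc1a.

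Total counts ran from 17555294 to 85316329 reads per library, with a median of 31879679. Each of the 8 genes had reads in each library and passed the filter on low counts in all 4 muscles. Esrrb was the most thinly covered, with a median of 48 reads and a minimum of 2. The muscle labels were checked against myosin heavy chains: the slow Myh7 had a median of 47514 CPM (counts-per-million) in soleus and 2062 in tibialis anterior at 6 months, and the fast Myh4 had 8.39 and 87432. Skeletal muscle genes such as Acta1 and Ckm were high in all libraries of 6 and 27 months, with Acta1 at no less than 17625 CPM. Gastrocnemius libraries carry label numbers of a series of their own, so muscle and number series cannot be told apart where the gastrocnemius is compared with another muscle. In the other muscles a further series holds all 12-month libraries and 1 library of 21 months each, so the 12-month comparisons and number series cannot be told apart there. Within the remaining series the label numbers of an age also run together in diaphragm and soleus. Age and label number therefore cannot be told apart at the other ages either. Levels below are the lowest to the highest library of a group, in CPM scaled by the trimmed mean of M-values (TMM), a change is on the log2 scale from limma-voom, and a gene is called (lower, or higher) where its Benjamini-Hochberg adjusted p over all genes tested is under 0.05 and its change is over 1.5-fold.

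The promoters of Ppargc1a, Esrra and Tfam are shown because they alone, of the 11 promoters listed for the 8 genes, held a match to one of the 4 motifs searched. The sequences are the 250 bases before the RefSeq transcript start in the GRCr8 assembly, at chr14:63634058-63634307 (plus strand), chr1:213543306-213543555 (minus strand) and chr20:17355123-17355372 (plus strand), written 5′ to 3′ along the gene. This assembly is not the one behind the counts (B6.0). Capitals mark exact matches, on either strand, to any of 4 motifs: the NRF1 core GCATGCGC, the GABP site CCGGAAGT, the cAMP response element TGACGTCA and the ERR response element TNAAGGTCA.
Ppargc1a: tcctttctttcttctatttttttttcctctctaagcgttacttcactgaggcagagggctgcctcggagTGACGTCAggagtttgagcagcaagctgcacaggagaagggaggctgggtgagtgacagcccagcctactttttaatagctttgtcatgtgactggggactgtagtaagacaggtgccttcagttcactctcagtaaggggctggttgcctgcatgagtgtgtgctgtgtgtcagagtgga
Esrra: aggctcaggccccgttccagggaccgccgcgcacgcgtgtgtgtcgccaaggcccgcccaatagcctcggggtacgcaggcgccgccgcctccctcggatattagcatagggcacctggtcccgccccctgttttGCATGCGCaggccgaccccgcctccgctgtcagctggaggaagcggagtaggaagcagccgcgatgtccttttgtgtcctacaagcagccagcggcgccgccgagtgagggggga
Tfam: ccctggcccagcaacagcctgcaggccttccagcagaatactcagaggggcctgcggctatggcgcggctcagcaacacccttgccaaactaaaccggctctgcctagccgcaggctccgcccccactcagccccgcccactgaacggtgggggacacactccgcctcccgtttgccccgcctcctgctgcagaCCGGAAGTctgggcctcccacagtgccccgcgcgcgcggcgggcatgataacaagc
The Ppargc1a promoter held a cAMP response element 181 to 174 bases before the start, a motif present in 1.59% of 33469 rat promoters of this length. That of Esrra held an NRF1 core 115 to 108 bases before the start (2.2% of promoters). In Tfam the match was a GABP site 56 to 49 bases before the start (3.1% of promoters). The ERR response element, found in 1.04% of promoters, was in none of the 11. These matches are letters in a window and were not measured as binding.

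At 6 months the members were distributed unevenly over the muscles. Of the 8 members, 6 differed between gastrocnemius and diaphragm, beside 37.3% of all genes tested, 4 between soleus and gastrocnemius (45.4%) and 4 between tibialis anterior and soleus (42.9%). For soleus against diaphragm (23.9%), tibialis anterior against diaphragm (35.1%) and tibialis anterior against gastrocnemius (17.3%) the number was 2 each. The receptors Esrrg and Esrrb were highest in soleus and the diaphragm. Esrrg, the receptor tied to oxidative fibres, ranged over 255 to 320.0 CPM (median 289) in soleus, 108 to 142 CPM (median 129) in diaphragm, 65.5 to 81.3 CPM (median 72.5) in tibialis anterior and 38.5 to 81.1 CPM (median 65.6) in gastrocnemius. The soleus libraries all lay above those of the other muscles, 1.15 log2 units above the diaphragm and 2.20 above the gastrocnemius, while tibialis anterior and gastrocnemius overlapped and differed by 0.20 ± 0.08 (SE, adjusted p = 0.0225), under 1.5-fold. Esrrb was at 1.86 to 2.95 CPM (median 2.81) in diaphragm and 1.36 to 3.03 CPM (median 2.48) in soleus, against 0.474 to 0.979 CPM (median 0.622) in gastrocnemius and 0.302 to 0.666 CPM (median 0.512) in tibialis anterior. All libraries of the former pair lay above all of the latter, while soleus and diaphragm overlapped and differed by -0.17 ± 0.13 (SE, adjusted p = 0.234) and the latter pair by -0.48 ± 0.26 (SE, adjusted p = 0.107).

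Esrra, the receptor most closely tied to PGC-1α, had the opposite order, with 58.2 to 103 CPM (median 72.4) in gastrocnemius, 41.2 to 57.8 CPM (median 51) in tibialis anterior, 33.9 to 43.1 CPM (median 41.3) in diaphragm and 25.8 to 31.4 CPM (median 28.5) in soleus. Each neighbouring pair in that order had an adjusted p under 0.05, but the steps from gastrocnemius to tibialis anterior (-0.54), from tibialis anterior to diaphragm (-0.35) and from diaphragm to soleus (-0.49) were each under 1.5-fold. Ppargc1a was highest in diaphragm at 63.5 to 106 CPM (median 92.5), followed by the tibialis anterior at 62.8 to 81.6 CPM (median 72.6), the gastrocnemius at 43.6 to 65.1 CPM (median 56.7) and the soleus at 37.3 to 61.3 CPM (median 46.8). Neighbours in that order overlapped and differed by less than 1.5-fold, and its ends, soleus minus diaphragm, differed by -0.95 ± 0.09 (SE, adjusted p = 2.72e-21). One of the 12 diaphragm libraries at 6 months held 130.1 CPM of Ucp1, the thermogenic protein of brown fat that Ppargc1a induces, and 9 of the 12 had no Ucp1 read. Without 1 library at a time the diaphragm change of Ppargc1a at 27 months lay between -0.24 and -0.14. Nrf1 was higher in gastrocnemius, at 12.4 to 18.9 CPM (median 14.5), than in diaphragm at 7.43 to 11.3 CPM (median 9.01), a difference of 0.71 ± 0.06 (SE, adjusted p = 9.39e-26) with no overlap. Gabpa was lower and more spread there, at 23.8 to 64.1 CPM (median 52.2) against 78.9 to 95.3 CPM (median 86.5) in tibialis anterior. Ppargc1b and Tfam differed by less than 1.5-fold in all 6 pairs of muscles. By 27 months the numbers were 3 for gastrocnemius against diaphragm (32.3% of all genes), 4 for soleus against diaphragm (27.9%), 3 for tibialis anterior against diaphragm (27.4%), 3 for soleus against gastrocnemius (34.0%), 0 for tibialis anterior against gastrocnemius (10.4%, also 0 by edgeR) and 3 for tibialis anterior against soleus (31.7%). Esrra then separated the soleus from the other muscles, at -1.22 against the diaphragm, -1.42 against the gastrocnemius and 1.02 for tibialis anterior minus soleus.

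**Figure D1:**
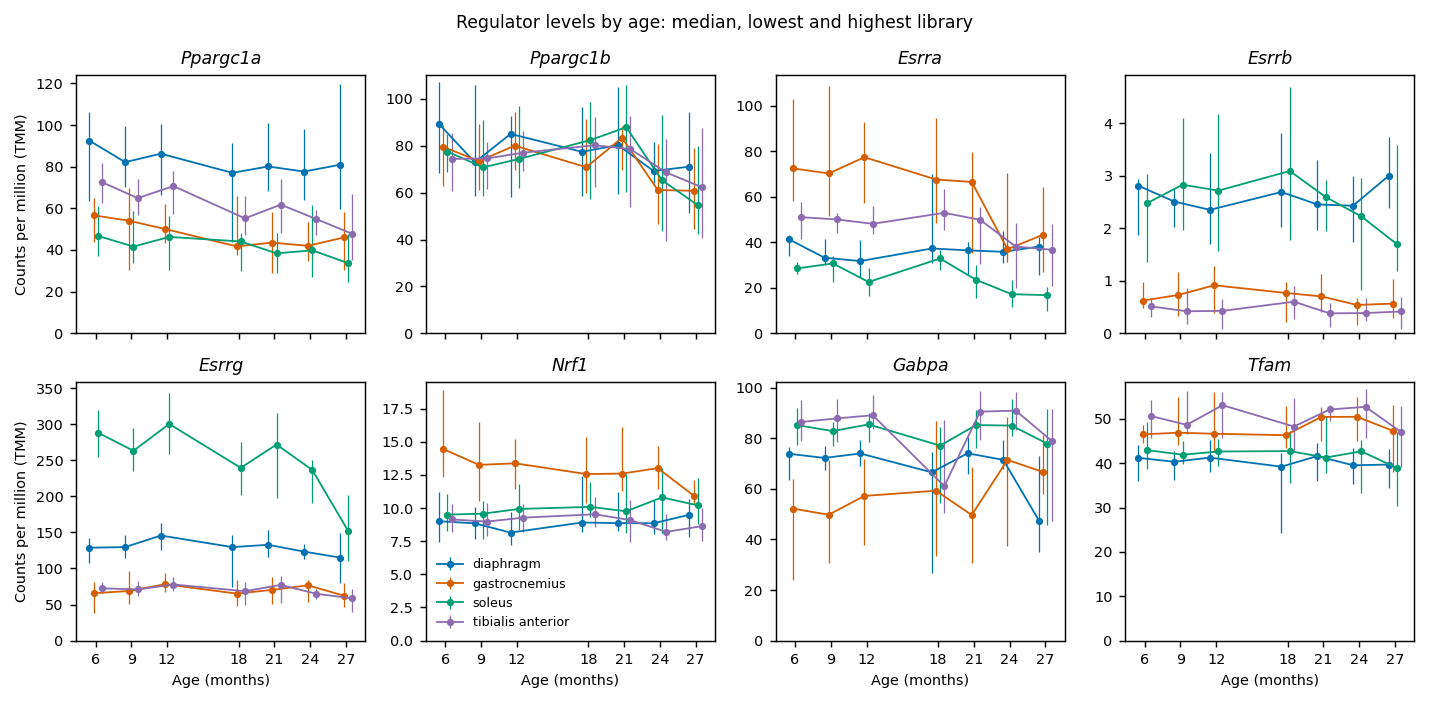
Levels of the 8 regulators (TMM-scaled CPM, vertical axes from 0) against age in months, 1 colour per muscle, with points at the group median and bars from the lowest to the highest library. Esrrg in soleus fell from a median of 289 CPM at 6 months to 152 at 27 months, and Esrra in gastrocnemius from 72.4 to 43.3.

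With age, few members crossed the threshold, and those that did were lower. At 27 against 6 months 0 of 8 members were called in diaphragm, 1 in gastrocnemius, 2 in soleus and 2 in tibialis anterior, all lower. In diaphragm 4 members had an unadjusted p under 0.05, and edgeR and DESeq2 called 0 as well. Among all genes the share called was 7.52% in diaphragm, 22.8% in gastrocnemius, 15% in soleus and 27.6% in tibialis anterior, and the share called lower was 4.25%, 7.76%, 5.78% and 10.4%. At 24 months Esrra alone was called, in gastrocnemius and the soleus, where 18.8% and 6.51% of all genes were called, while the shares were 2.68% in diaphragm and 14.5% in tibialis anterior. At 9, 12, 18 and 21 months 0 members were called in any muscle by limma-voom, edgeR or DESeq2, although between 0 and 4 had an unadjusted p under 0.05 in each limma-voom comparison. The shares of all genes called at these 4 ages were 0.108%, 0.532%, 2.25% and 1.68% for diaphragm, 0.143%, 0.885%, 4.32% and 5.81% for gastrocnemius, 0.123%, 0.353%, 2.84% and 2.61% for soleus, and 0.00851%, 0.196%, 5.45% and 6.47% for tibialis anterior. The members' median change at 27 months was -0.16 in diaphragm, -0.27 in gastrocnemius, -0.41 in soleus and -0.28 in tibialis anterior, while the median of all genes lay between 0.00 and 0.04. Scaling by total counts in place of TMM moved the median of all genes up to 0.32 in gastrocnemius, 0.16 in soleus and 0.34 in tibialis anterior, and the members' medians to 0.01, -0.25 and 0.04. By the Bayesian information criterion (BIC) 2, 5, 5 and 4 of the 8 members had a trend over the 7 ages in diaphragm, gastrocnemius, soleus and tibialis anterior, beside 29.6%, 55.1%, 40.2% and 64.9% of all genes. Every age was compared with the same 6-month libraries. In bulk muscle, fewer cells of a type and less RNA per cell cannot be told apart.

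Among the coactivators, Ppargc1a, the exercise-induced form, had values of 62.8 to 81.6 CPM (median 72.6) at 6 months in tibialis anterior, 47.2 to 59.4 CPM (median 54.8) at 24 months and 35.1 to 66.7 CPM (median 47.8) at 27 months. All 12 libraries of 24 months lay below the lowest of 6 months, as did 11 of 12 at 27 months. The change was -0.59 ± 0.07 (SE, adjusted p = 1.85e-12) at 27 months, just past 1.5-fold, and -0.43 ± 0.07 (SE, adjusted p = 9.20e-08) at 24 months, which was not called. This call was lost with edgeR, DESeq2, total-count and upper-quartile scaling, sample quality weights, the replicate number as a block, the fibre score as a covariate and 9 months as the reference, where the change lay between -0.58 and -0.26, and it held in 14 of 24 fits that each left out 1 library. In soleus the values went from 37.3 to 61.3 CPM (median 46.8) at 6 months to 24.6 to 47.5 CPM (median 33.7) at 27 months, a change of -0.47 ± 0.10 (SE, adjusted p = 3.24e-05). The gastrocnemius changed by -0.28 ± 0.12 (SE, adjusted p = 0.0343), or 0.01 with total-count scaling, and the diaphragm by -0.19 ± 0.09 (SE, adjusted p = 0.0786). By the interaction test the change differed by -0.45 ± 0.13 (SE, adjusted p = 0.00171) for tibialis anterior minus diaphragm. For soleus minus diaphragm it was -0.34 ± 0.13 (SE, adjusted p = 0.0274), both under 1.5-fold. Gastrocnemius minus diaphragm did not pass (-0.14, adjusted p = 0.399). Ppargc1a followed a linear falling trend over the 7 ages in the 3 limb muscles and no trend in diaphragm.

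Ppargc1b, which is expressed without the exercise response of Ppargc1a, changed by less than 1.5-fold in each muscle. Its values were 68.6 to 107 CPM (median 89.3) in diaphragm at 6 months and 51.5 to 94.6 CPM (median 71.1) at 27 months, and 62.7 to 89 CPM (median 79.6) and 44.4 to 79.2 CPM (median 60.8) in gastrocnemius. They were 68.7 to 85.1 CPM (median 77.5) and 42.4 to 79.9 CPM (median 54.7) in soleus, and 60.6 to 85.5 CPM (median 74.4) and 40.6 to 87.7 CPM (median 62.3) in tibialis anterior. The groups overlapped in each muscle. The changes were -0.35 ± 0.08 (SE, adjusted p = 3.00e-04), -0.40 ± 0.08 (SE, adjusted p = 9.31e-06), -0.45 ± 0.09 (SE, adjusted p = 2.60e-05) and -0.26 ± 0.09 (SE, adjusted p = 0.00594), all past the adjusted p and all under 1.5-fold, and with total-count scaling that in tibialis anterior turned to 0.06. Interaction terms between muscles did not pass for Ppargc1b in any of the 6 pairs.

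**Figure D2:**
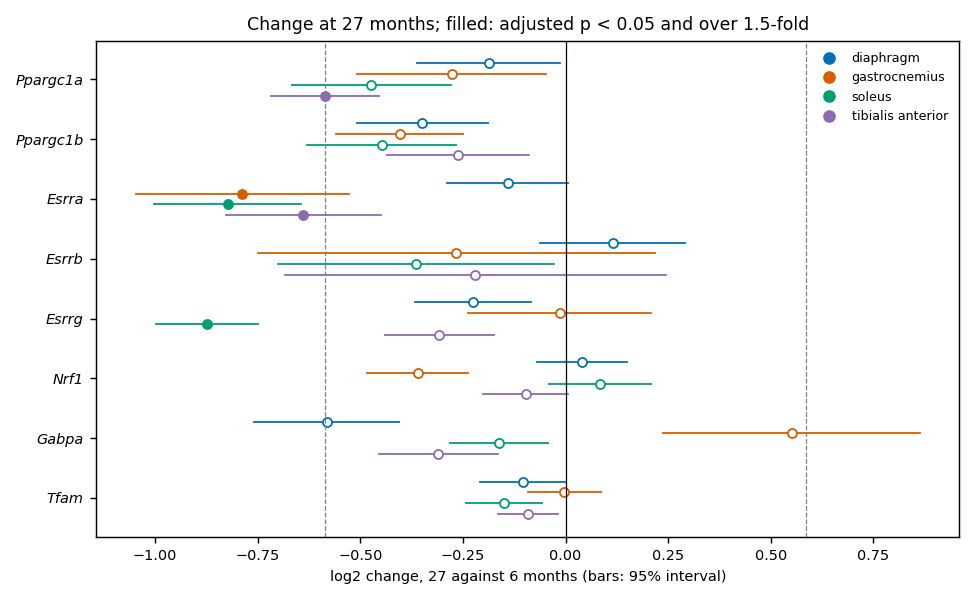
Change from 6 to 27 months (log2, horizontal axis) of each regulator in each muscle, with points at the limma-voom estimate, filled where called, lines for its 95% confidence interval and vertical lines at no change and at 1.5-fold. Esrra is near no change in diaphragm (-0.14) and at -0.79, -0.82 and -0.64 in the limb muscles, and Gabpa lies at -0.58 in diaphragm and 0.55 in gastrocnemius.

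Among the receptors, Esrra had the widest set of calls. Its values in gastrocnemius were 58.2 to 103 CPM (median 72.4) at 6 months, 31.2 to 70.4 CPM (median 36.9) at 24 months and 27 to 64.5 CPM (median 43.3) at 27 months. Below the lowest 6-month library lay 8 of 9 libraries of 24 months and 10 of 11 of 27 months. In soleus the values were 25.8 to 31.4 CPM (median 28.5) at 6 months, 11.5 to 23.5 CPM (median 17.2) at 24 months and 9.65 to 20.3 CPM (median 16.7) at 27 months, and neither old group overlapped with the young one. In tibialis anterior they were 41.2 to 57.8 CPM (median 51), 19.8 to 48.3 CPM (median 38.1) and 20.8 to 48.1 CPM (median 36.7) at these ages. There 10 of 12 and 9 of 12 libraries lay below the 6-month range. In diaphragm the values, 33.9 to 43.1 CPM (median 41.3) at 6 months and 25.6 to 42.4 CPM (median 38.1) at 27 months, overlapped. At 27 months Esrra fell by 0.79 ± 0.13 (SE, adjusted p = 5.29e-07) in gastrocnemius, 0.82 ± 0.09 (SE, adjusted p = 1.95e-12) in soleus and 0.64 ± 0.10 (SE, adjusted p = 1.34e-08) in tibialis anterior, and the diaphragm changed by -0.14 ± 0.08 (SE, adjusted p = 0.120), with a 95% interval of -0.29 to 0.01. The test of the difference between muscles gave -0.69 ± 0.14 (SE, adjusted p = 1.24e-05) for gastrocnemius minus diaphragm, where 21.6% of all genes were called, -0.74 ± 0.15 (SE, adjusted p = 1.32e-05) for soleus minus diaphragm (11.9%) and -0.55 ± 0.14 (SE, adjusted p = 5.32e-04) for tibialis anterior minus diaphragm (20.3%), the last under 1.5-fold. Between the limb muscles the differences did not pass, with intervals of -0.34 to 0.25 for soleus minus gastrocnemius, -0.14 to 0.43 for tibialis anterior minus gastrocnemius and -0.10 to 0.48 for tibialis anterior minus soleus, a pair in which 15.8% of all genes and 0 members were called. The trends in the 3 limb muscles were classed as late and falling, with inflections fitted at 21.25 months in gastrocnemius, 21.5 in soleus and 23 in tibialis anterior. No age between 21 and 24 months was sampled, so an inflection cannot be placed within that gap. The soleus was not flat before it, with Esrra medians of 22.5 CPM at 12 months, 32.8 at 18 and 23.5 at 21. Against 9 months the soleus changes were -0.41 (adjusted p = 0.00277) at 12 months and -0.32 (adjusted p = 0.0106) at 21 months. With total-count scaling the Esrra change at 27 months was -0.51 in gastrocnemius and -0.31 in tibialis anterior, neither called, and -0.67 in soleus, which was called. The call in tibialis anterior was also lost with edgeR, DESeq2 and upper-quartile scaling and without replicate 5 or replicate 6 of 27 months, where the change was -0.58, and with the fibre score as a covariate, where it was -0.49. Against 9 months in place of 6 the diaphragm value turned to 0.10.

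Esrrg, which with ERRα occupies genes of oxidative metabolism in muscle, changed most in the muscle where it was highest. In soleus the values were 255 to 320.0 CPM (median 289) at 6 months, 202 to 275 CPM (median 239.6) at 18 months, 191 to 250.1 CPM (median 237) at 24 months and 111 to 202 CPM (median 152) at 27 months. At 18 months 11 of 12 libraries and at 24 and 27 months all 12 lay below the 6-month range. The change was -0.33 ± 0.06 (SE, adjusted p = 3.18e-05) at 24 months, which was not called, and -0.87 ± 0.06 (SE, adjusted p = 2.73e-20) at 27 months, which was called in 24 of 24 fits without 1 library. In tibialis anterior the values were 65.5 to 81.3 CPM (median 72.5) at 6 months and 40.3 to 70.9 CPM (median 58.6) at 27 months, with 10 of 12 old libraries below the young range and a change of -0.31 ± 0.07 (SE, adjusted p = 4.83e-05). The diaphragm changed by -0.23 ± 0.07 (SE, adjusted p = 0.00811) and the gastrocnemius by -0.01 ± 0.11 (SE, adjusted p = 0.923), where 38.5 to 81.1 CPM (median 65.6) at 6 months and 46.3 to 79.1 CPM (median 62.2) at 27 months overlapped. The change in soleus differed from that in diaphragm by -0.71 ± 0.11 (SE, adjusted p = 9.30e-09) and from that in gastrocnemius by -0.87 ± 0.11 (SE, adjusted p = 1.26e-11), the latter beside 14.5% of all genes called. Against 9 months the soleus change at 27 months was -0.76 and also called. In soleus the 8 markers of fast fibres all rose at 27 months (median 2.45), with a summed level of 2168 to 4365 CPM at 6 months and 3524 to 12116 at 27 months, and 1 of 7 slow fibre markers was lower. With the slow minus fast fibre score of each library as a covariate the Esrrg change was -0.67, still called, and the Esrra change -0.47, under 1.5-fold. Esrrb, the receptor best known from embryonic stem cells, was at 1.36 to 3.03 CPM (median 2.48) in soleus at 6 months and 1.19 to 3.58 CPM (median 1.70) at 27 months, and its changes of 0.11, -0.27, -0.36 and -0.22 in diaphragm, gastrocnemius, soleus and tibialis anterior did not pass. Against 9 months the soleus change of Esrrb was -0.61 (adjusted p = 0.00155) and was called, with the fibre score it was 0.08, and its trend there was late and falling, with an inflection at 21.25 months. At its depth the interval of the change in gastrocnemius ran from -0.75 to 0.22.

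Of the other DNA-binding factors, Nrf1, which activates respiratory chain subunits and Tfam, passed the adjusted p at 27 months in gastrocnemius alone of the 4 muscles. Its values there were 12.4 to 18.9 CPM (median 14.5) at 6 months and 10.3 to 12.1 CPM (median 11) at 27 months, without overlap. The change was -0.36 ± 0.06 (SE, adjusted p = 1.0e-06), under 1.5-fold, and the trend linear and falling. Against 9 months in place of 6 the change in gastrocnemius was -0.23 (adjusted p = 7.11e-04). Total-count scaling moved the median of all genes there up to 0.32. The Nrf1 change did not turn its sign with it, but its size under that scaling is not given here. In the other muscles the changes were 0.04 in diaphragm, 0.08 in soleus and -0.10 in tibialis anterior, which turned to 0.23 (adjusted p = 9.90e-04) with total-count scaling. By the interaction test the change differed by -0.45 ± 0.08 (SE, adjusted p = 9.68e-07) for gastrocnemius minus diaphragm. It was 0.44 ± 0.08 (SE, adjusted p = 3.19e-06) for soleus minus gastrocnemius and 0.27 ± 0.09 (SE, adjusted p = 0.0117) for tibialis anterior minus gastrocnemius, each under 1.5-fold. At 24 months the tibialis anterior had -0.14 ± 0.05 (SE, adjusted p = 0.0201). In soleus the values were 8.27 to 11.1 CPM (median 9.51) at 6 months and 8.83 to 12.2 CPM (median 10.2) at 27 months.

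Gabpa, the DNA-binding subunit of GABP, had changes of opposite sign in different muscles. In diaphragm the values were 63.4 to 76.8 CPM (median 73.9) at 6 months, 67.9 to 79.2 CPM (median 71.5) at 24 months and 35 to 73.1 CPM (median 47.4) at 27 months. In gastrocnemius they were 23.8 to 64.1 CPM (median 52.2), 37.3 to 88.3 CPM (median 71.5) and 58 to 81.5 CPM (median 66.7) at these ages. Of the old diaphragm libraries 9 of 12 lay below the young range, whereas 7 of 11 old gastrocnemius libraries lay above it. The changes at 27 months were -0.58 ± 0.09 (SE, adjusted p = 1.51e-07) in diaphragm and 0.55 ± 0.16 (SE, adjusted p = 0.00220) in gastrocnemius, both just under 1.5-fold, and the soleus and tibialis anterior changed by -0.16 ± 0.06 (SE, adjusted p = 0.0208) and -0.31 ± 0.07 (SE, adjusted p = 1.31e-04). Gastrocnemius minus diaphragm, the difference of these changes was 1.08 ± 0.14 (SE, adjusted p = 2.82e-12). It was -0.72 ± 0.14 (SE, adjusted p = 4.24e-06) for soleus minus gastrocnemius and -0.86 ± 0.14 (SE, adjusted p = 1.35e-07) for tibialis anterior minus gastrocnemius, where 7.32% of all genes were called. With total-count scaling the change in gastrocnemius was 0.83 and was called, and that in tibialis anterior turned to 0.01. Without 1 library at a time the diaphragm change was called in 7 of 24 fits and the gastrocnemius change in 3 of 21.

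The spread of Gabpa also differed between ages. In diaphragm, soleus and tibialis anterior its SD over libraries was 0.05 to 0.09 log2 CPM at 6, 9, 12, 21 and 24 months, but 0.23 to 0.40 at 18 and 27 months. This was not particular to Gabpa: the SD of Esrrg in diaphragm was 0.26 and 0.27 at 18 and 27 months and 0.07 to 0.12 at the other ages. In soleus and tibialis anterior Esrrg was spread at 21 months as well (SD 0.22 and 0.25). In diaphragm and soleus the libraries of 18 and 27 months also carry the lowest label numbers, and a link to the spread was not tested. At 18 months the values were 26.9 to 74.6 CPM (median 66.6) in diaphragm, 54.5 to 84.4 CPM (median 77.1) in soleus and 50.6 to 87.3 CPM (median 61.1) in tibialis anterior. At 24 months they were 67.9 to 79.2 CPM (median 71.5), 81.1 to 95.8 CPM (median 85.1) and 83.2 to 98.5 CPM (median 91). The 18-month groups reached below the 6-month range in 5, 6 and 10 of 12 libraries and the 24-month groups in 0 of 12 each. Its 18-month changes were -0.28 ± 0.09 (SE, adjusted p = 0.0172), -0.24 ± 0.06 (SE, adjusted p = 0.00241) and -0.45 ± 0.07 (SE, adjusted p = 1.20e-06). One diaphragm library of 18 months, replicate 11, stood apart with 26.9 CPM of Gabpa, 24.2 of Tfam, 43.8 of Ppargc1a and 69.8 of Esrra. Without it, an alternative added after the data were seen, the diaphragm change of Gabpa at 18 months was -0.16 (adjusted p = 0.0927), that of Ppargc1a moved from -0.30 to -0.22 and that of Tfam from -0.11 to -0.03. After centring on the age means, Gabpa correlated with the share of a library's counts held by its 10 most abundant genes at r = -0.56 in diaphragm, -0.70 in gastrocnemius, -0.04 in soleus and -0.20 in tibialis anterior, and Esrra at 0.66, 0.76, 0.53 and 0.75 (83, 73, 84 and 85 libraries). These values share the library and its scaling, and the part of library composition in the changes was not tested.

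**Figure D3:**
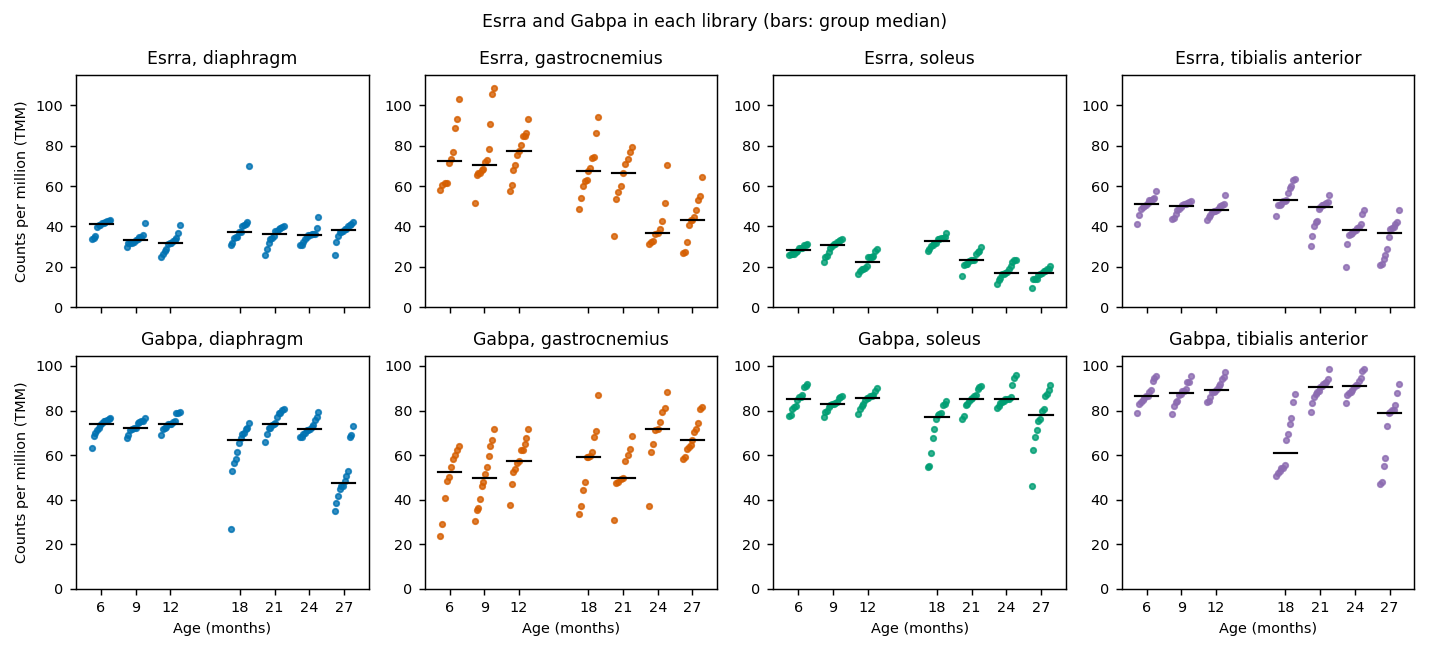
Esrra and Gabpa in each library (TMM-scaled CPM, vertical axes from 0) against age in months, 1 panel per gene and muscle, with a point per library and a bar at the group median. Gabpa spreads at 18 and 27 months in diaphragm, soleus and tibialis anterior (SD 0.23 to 0.40 on the log2 scale) and less at the other ages (0.05 to 0.09).

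Tfam, the packaging and transcription factor of mitochondrial DNA, changed by less than 1.5-fold in each muscle, with no value beyond -0.15. Its values were 35.9 to 44 CPM (median 41.2) in diaphragm at 6 months and 34.3 to 43.3 CPM (median 39.7) at 27 months, and 44.6 to 48.7 CPM (median 46.5) and 38 to 53.1 CPM (median 47.3) in gastrocnemius. They were 38.8 to 49.2 CPM (median 43) and 30.4 to 47 CPM (median 38.9) in soleus, and 45.7 to 54.2 CPM (median 50.7) and 39.1 to 53 CPM (median 47) in tibialis anterior. The groups overlapped in each muscle. Changes were -0.10 ± 0.05 (SE, adjusted p = 0.103), -0.00 ± 0.04 (SE, adjusted p = 0.964), -0.15 ± 0.05 (SE, adjusted p = 0.00567) and -0.09 ± 0.04 (SE, adjusted p = 0.0242), the 95% interval in gastrocnemius was -0.09 to 0.09, and no trend was fitted in any muscle. With total-count scaling the gastrocnemius and tibialis anterior values turned to 0.28 and 0.23 and that of the soleus to 0.00.

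Relatives and targets of the members are given next from lists of genes taken from general knowledge. Among all genes tested at 27 months, 4.25%, 7.76%, 5.78% and 10.4% were called lower in diaphragm, gastrocnemius, soleus and tibialis anterior. Called higher were 393 of 12035, 1787 of 11865, 1121 of 12175 and 2026 of 11754 genes in this order. Of 11 PGC-1 relatives and coregulators Perm1, a muscle regulator that PGC-1α and ERRs induce, was called in the limb muscles. Its median fell from 511 to 171 CPM in gastrocnemius, from 805 to 228 CPM in soleus and from 645 to 265 CPM in tibialis anterior. Perm1 changed by -1.39 ± 0.16 (adjusted p = 1.49e-11), -1.85 ± 0.15 (adjusted p = 1.55e-17) and -1.24 ± 0.17 (adjusted p = 1.65e-09), against -0.25 ± 0.06 (adjusted p = 3.30e-04) in diaphragm, and was called with total-count scaling as well. Nrip1, a corepressor in oxidative metabolism, rose by 0.59 ± 0.14 (adjusted p = 2.01e-04) in gastrocnemius and 0.60 ± 0.06 (adjusted p = 2.42e-14) in soleus. Pprc1, the PGC-1-related coactivator, Gabpb1, the partner of GABPα, and Polrmt, the mitochondrial RNA polymerase, were called in no muscle. Among 26 signals upstream of Ppargc1a, 0 were called in diaphragm, 1 higher and 4 lower in gastrocnemius, 2 higher in soleus and 5 lower of 25 tested in tibialis anterior. With total-count scaling, where most calls among all genes were higher in the limb muscles, 3 signals were higher and 0 lower in gastrocnemius. The numbers were 3 and 0 in soleus and 3 and 1 in tibialis anterior. Prkaa2, the AMPK catalytic subunit of muscle, was at -0.59 in gastrocnemius and -1.41 in tibialis anterior. Mapk14, the p38α kinase, was at -0.75 and -0.63, and Prkag3, an AMPK subunit of fast fibres, rose by 2.22 in soleus. Of 11 other DNA-binding partners 0, 4, 2 and 3 were lower in diaphragm, gastrocnemius, soleus and tibialis anterior, Rxrg, a retinoid X receptor, at -1.40, -0.96 and -1.36 in the limb muscles. Of 19 genes of mitochondrial DNA maintenance and transcription 0 were lower in diaphragm and gastrocnemius, 2 in soleus and 3 in tibialis anterior, among them Tfb2m, the partner of TFAM at the promoter, at -0.76 in tibialis anterior. With total-count scaling 4 of these genes were called higher in gastrocnemius and 2 in tibialis anterior, and 0 were lower.

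Of 33 nuclear subunits of complex I, 13 were lower in gastrocnemius, 6 in soleus, 3 in tibialis anterior and 0 in diaphragm, with median changes of -0.55, -0.48, -0.47 and 0.02. Beside these and the lists below, 7.76%, 5.78%, 10.4% and 4.25% of all genes were called lower in this order. The 3 of 33 in tibialis anterior was not above that share. Of 38 subunits of complexes II to V the numbers lower were 12, 9, 6 and 0, for example Cox5a of complex IV at -0.74, -0.82 and -0.66 against -0.03. The medians kept their direction in the limb muscles with total-count scaling, but over both lists only 1, 4 and 0 subunits were then lower, and 1 was higher in tibialis anterior. The citric acid cycle had 4, 3, 4 and 1 lower of 12, and 0 in each muscle with total-count scaling. Fatty acid oxidation had 11 of 20 lower in soleus and 0 in the other muscles, and with total-count scaling 5 lower in soleus and 1 higher in tibialis anterior. Of 19 genes known to respond to PGC-1 or ERR, 8 were lower in gastrocnemius, 9 in soleus, 8 in tibialis anterior and 2 in diaphragm, and 1 was higher in each of the soleus and tibialis anterior. With total-count scaling 3, 6, 3 and 2 were lower in this order, and 1 was higher in each limb muscle. Cycs, cytochrome c, was lower in all 4 muscles, at -0.67 in diaphragm and -0.64, -1.06 and -1.20 in gastrocnemius, soleus and tibialis anterior, and was not called in gastrocnemius with total-count scaling. The higher genes were Ucp3, an uncoupling protein, at 1.62 in soleus and -1.20 in diaphragm, where it was lower, and Pdk4, which restrains glucose oxidation, at 0.63 in tibialis anterior. Fndc5, Vegfa and Slc25a4, a myokine precursor, an angiogenic factor and the muscle ADP/ATP carrier, were at -0.96, -0.65 and -0.60 in soleus. Mitochondrial import and dynamics had 1, 1, 2 and 4 lower of 16 in diaphragm, gastrocnemius, soleus and tibialis anterior, or 1, 0, 1 and 0 with total-count scaling. In diaphragm, where limma-voom called 0 subunits of complexes I to V, 0 relatives, 0 upstream signals, 0 partners, 0 genes of mitochondrial DNA maintenance and 0 of fatty acid oxidation, the numbers with an unadjusted p under 0.05 were 11 and 16, 7, 16, 3, 8 and 12. Of the 13 protein-coding genes of mitochondrial DNA, 0 were found among the gene symbols under the names searched, so their levels could not be described.

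Other tissue markers moved at the same age. Among all genes, 393 of 12035, 1787 of 11865, 1121 of 12175 and 2026 of 11754 were called higher in diaphragm, gastrocnemius, soleus and tibialis anterior. The shares called lower were 4.25%, 7.76%, 5.78% and 10.4%. The 10 denervation genes were all higher in each of the 4 muscles, with summed levels of 119 to 177 CPM at 6 months and 213 to 842 at 27 months in diaphragm and 94.4 to 149 CPM at 6 months and 875 to 3504 at 27 months in tibialis anterior. All 6 macrophage markers were higher in gastrocnemius and the tibialis anterior, 1 in soleus (6 with total-count scaling) and 0 in diaphragm, where 4 had an unadjusted p under 0.05. Their sum was 80.5 to 139 CPM at 6 months and 151 to 265 at 27 months in gastrocnemius and 38 to 59.8 CPM at 6 months and 81.3 to 163 at 27 months in tibialis anterior. Of 5 white adipocyte markers 4 were higher in each limb muscle and 0 in diaphragm (0 with an unadjusted p under 0.05), with a sum of 43 to 177 CPM at 6 months and 158 to 407 at 27 months in soleus. Of 8 fast fibre markers 3 were lower in gastrocnemius and 3 in tibialis anterior, and 1 was higher in diaphragm. Of 7 slow fibre markers 2 were lower in tibialis anterior. Fibroblast markers were lower for 3 of 5 in diaphragm, 2 in gastrocnemius and 2 in soleus, and 0 were called in tibialis anterior. T cell markers were higher for 2 of 4 tested in diaphragm and, of 2 tested in each limb muscle, for 1 in gastrocnemius, 1 in soleus and 2 in tibialis anterior. Of 14 clock genes 6 were higher and 4 lower in diaphragm, 4 and 4 in gastrocnemius, 6 and 4 in soleus and 5 and 6 in tibialis anterior. For 11 immediate early genes the numbers were 0 and 1, 6 and 1, 5 and 0, and 6 and 2. Of 4 liver genes 3 were lower in soleus, where Alb ranged over 3.83 to 1211 CPM at 6 months and 0.503 to 1749 at 27 months. Cidea, the 1 brown adipocyte marker tested, changed by -0.27 in diaphragm and by 2.47, 0.82 and 3.62 in gastrocnemius, soleus and tibialis anterior. Endothelial, Schwann cell, satellite cell, smooth muscle and red cell markers are not described here. The part of these cell types, of clock and immediate early genes and of denervation in the members' changes was not tested.

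**Figure D4:**
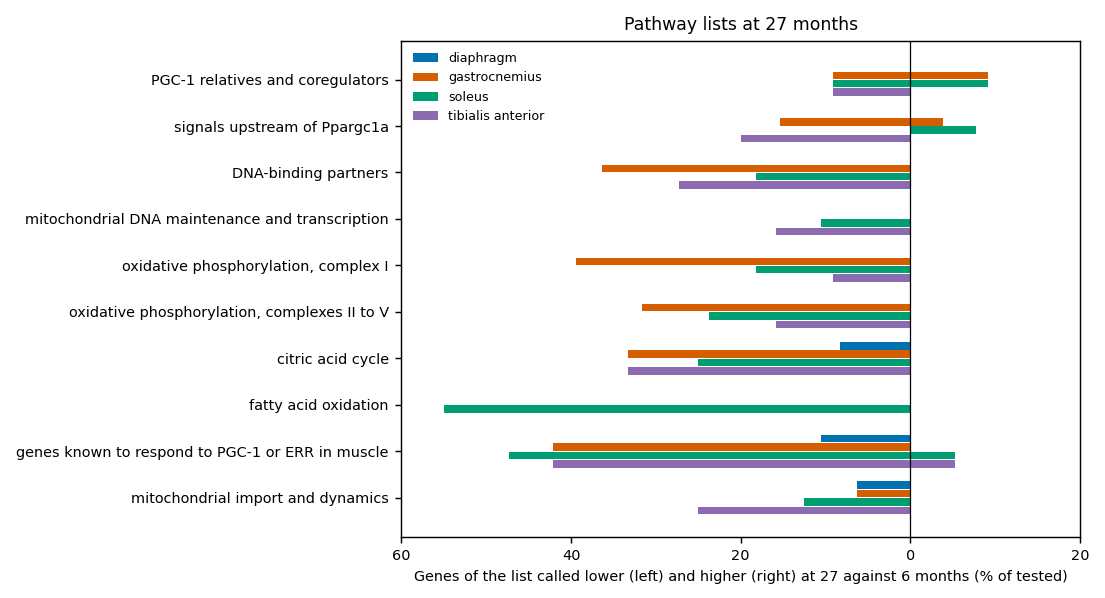
Share of each pathway list called at 27 against 6 months (percent of genes tested, horizontal axis) in each muscle, 1 colour per muscle. Bars to the left are genes called lower and to the right genes called higher: complex I reaches 13 of 33 lower in gastrocnemius, and fatty acid oxidation has bars in soleus alone, for 11 of 20. Among all genes 7.76% were called lower in gastrocnemius and 5.78% in soleus.

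The 71 nuclear genes of oxidative phosphorylation were also followed by age. In gastrocnemius 22 were lower at 24 months and 25 at 27 months. In soleus and tibialis anterior 0 were lower at 24 months, and 15 and 9 at 27 months. In diaphragm 0 were called at any older age. Among all genes 7.76%, 5.78% and 10.4% were lower at 27 months in gastrocnemius, soleus and tibialis anterior. At 24 months 18.8%, 6.51% and 14.5% of all genes were called there, higher or lower. Esrra was called at 24 months in gastrocnemius and the soleus, and at 27 months in the 3 limb muscles. The median change of the 71 genes at 24 months was -0.50 in gastrocnemius, -0.27 in soleus and -0.23 in tibialis anterior.

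Within ages, the level of a member was set beside a score of these 71 genes, the mean of their log2 CPM, after centring both on the age mean. Over 32 relations (8 members in 4 muscles), p-values came from 100000 two-sided permutations within ages, and 1e-05 is the smallest they can give. Esrra had the highest r of the members in each muscle with TMM scaling. In gastrocnemius it had r = 0.89 (permutation p = 1.0e-05, adjusted 5.33e-05) and rho = 0.86 (permutation p = 1.0e-05, adjusted 8.00e-05), and in tibialis anterior r = 0.85 (permutation p = 1.0e-05, adjusted 5.33e-05) and rho = 0.75 (permutation p = 1.0e-05, adjusted 8.00e-05). The soleus gave r = 0.66 (permutation p = 1.0e-05, adjusted 5.33e-05) and rho = 0.60 (permutation p = 1.0e-05, adjusted 8.00e-05), and the diaphragm r = 0.49 (permutation p = 1.0e-05, adjusted 5.33e-05) and rho = 0.44 (permutation p = 1.0e-04, adjusted 5.03e-04). Without the 2 libraries farthest from the median of Esrra, r was 0.87, 0.80, 0.56 and 0.39 in this order. Its r was positive in all 7 ages in each muscle, and with total-count scaling it was 0.72, 0.70, 0.55 and 0.30, below the 0.35 of Ppargc1b in diaphragm. Ppargc1b had r = 0.78 (permutation p = 1.0e-05, adjusted 5.33e-05) and rho = 0.63 (permutation p = 1.0e-05, adjusted 8.00e-05) in tibialis anterior, or r = 0.71 without the 2 farthest libraries, and also passed in the other muscles. With total-count scaling it passed in tibialis anterior and the diaphragm, but had 0.27 (permutation test, adjusted p = 0.100) in gastrocnemius and 0.17 (permutation test, adjusted p = 0.337) in soleus. For Ppargc1a the tibialis anterior gave r = 0.42 (permutation p = 0.00169, adjusted 0.00451) and rho = 0.30 (permutation p = 0.0124, adjusted 0.0264), the soleus r = 0.34, and the gastrocnemius r = -0.07, which did not pass. In soleus Tfam, Esrrg and Esrrb also passed, at r = 0.54, r = 0.51 and r = 0.51, and in gastrocnemius Esrrb and Tfam, at r = 0.37 and r = 0.33. With total-count scaling Esrrb still passed in both muscles, but Tfam had 0.15 (permutation test, adjusted p = 0.389) in soleus and 0.01 (permutation test, adjusted p = 0.996) in gastrocnemius, Esrrg 0.20 (permutation test, adjusted p = 0.191) in soleus, and Ppargc1a 0.14 (permutation test, adjusted p = 0.376) in soleus and 0.16 (permutation test, adjusted p = 0.356) in tibialis anterior. Gabpa had a negative r, with r = -0.48 (permutation p = 1.0e-05, adjusted 5.33e-05) and rho = -0.47 (permutation p = 2.00e-05, adjusted 1.28e-04) in gastrocnemius and r = -0.41 (permutation p = 0.00312, adjusted 0.00761) and rho = -0.43 (permutation p = 3.10e-04, adjusted 0.00110) in tibialis anterior. It was negative in all 7 ages in both, and -0.42 and -0.34 without the 2 farthest libraries. The r of Gabpa with total-count scaling was -0.25 (permutation test, adjusted p = 0.0533) in gastrocnemius, -0.48 (permutation test, adjusted p = 0.00109) in tibialis anterior and -0.39 (permutation test, adjusted p = 0.0104) in soleus. Nrf1 passed in no muscle with TMM scaling, and in gastrocnemius with total-count scaling, at -0.41 (permutation test, adjusted p = 0.00197). Both measures come from the same library and share its scaling. After centring on the age mean, Esrra also correlated with the log2 total count of a library at r = 0.55 in gastrocnemius. In diaphragm, soleus and tibialis anterior this r was 0.14, 0.13 and -0.01. Gabpa, Ppargc1a and Esrrg had -0.43, -0.41 and -0.41 with it in gastrocnemius. The part of depth in the correlations with the score was not tested.

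**Figure D5:**
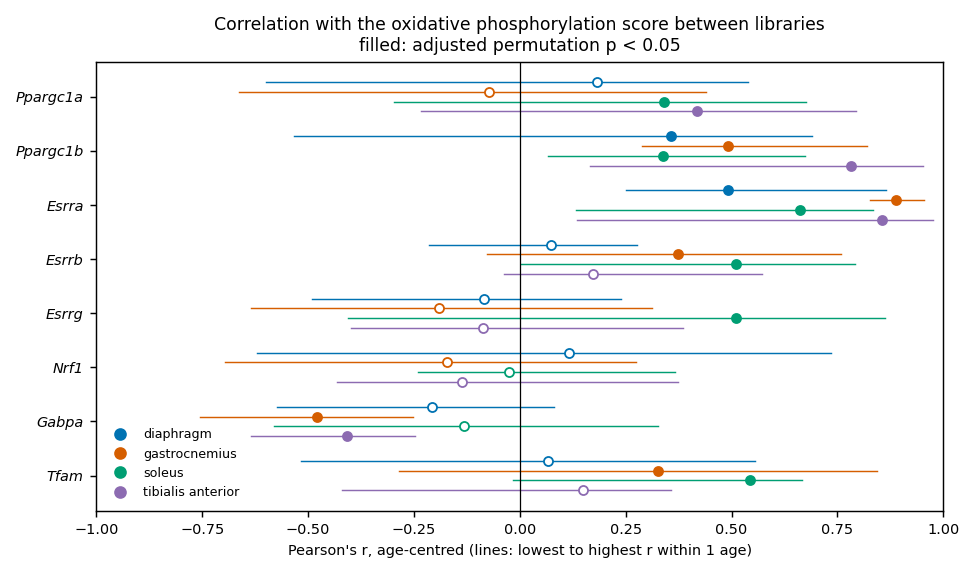
Pearson r (horizontal axis) between each regulator and the oxidative phosphorylation score over libraries of a muscle, both centred on the age mean, with a point per regulator and muscle filled where the adjusted permutation p is under 0.05, and a line from the lowest to the highest r within a single age. Esrra is at 0.89 in gastrocnemius and 0.85 in tibialis anterior, and Gabpa at -0.48 and -0.41.

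Likeness between genes was described over the 28 group means of log2 CPM among 10407 genes, where age and muscle both contribute. Most like Esrra were Ndufb2 (r = 0.985), Pank4 (r = 0.985) and Uqcr11 (r = 0.984), of which Ndufb2 and Uqcr11 encode subunits of complexes I and III. Most like Ppargc1a were Mfap3l (r = 0.961), Anxa3 and Zim1, and most like Ppargc1b Lingo4 (r = 0.843), Cbfa2t3 and Bnip1. The nearest to Esrrg were Qk (r = 0.989), Trdmt1 and Camta1, and to Esrrb Aqp7 (r = 0.987), Fgf1 and Rhbdl3. For Nrf1 they were Ubl5 (r = 0.952), Hoxd4 and Rpl27, for Tfam Prkrir (r = 0.976), Zfp330 and Lars, and for Gabpa Cggbp1 (r = 0.979), Tcea1 and Pggt1b. Among the members Esrrb and Esrrg were alike (r = 0.85), whereas Esrrb and Tfam (r = -0.92) and Esrra and Esrrg (r = -0.75) ran opposite. Within ages, over single libraries and 10406 genes, 310 genes followed Esrra at r over 0.8 in gastrocnemius and 301 in tibialis anterior, but 3 in diaphragm and 0 in soleus. Gabpa had 656 such genes in diaphragm, 878 in gastrocnemius, 103 in soleus and 275 in tibialis anterior, and Nrf1 and Esrrb had 0 in each.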

How the data were processed

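RNA was measured in libraries of 4 rat muscles at 7 ages, prepared by the authors as stranded, rRNA-depleted total RNA and sequenced paired-end. The authors deposited raw counts per gene, made with the ArrayStudio pipeline on the rat B6.0 genome with an in-house gene model based on RefSeq. Replicates were not pooled. Groups and replicate numbers follow the labels. The files held 17315 symbols, and no 2 libraries held identical values.

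Counts were filtered with filterByExpr (minimum count 10, minimum total 15), scaled by TMM and fitted with limma-voom (limma 3.58.1, edgeR 4.0.16, R 4.3.3), all ages of a muscle in 1 fit with 6 months as the reference, and all 28 groups in 1 fit for comparisons between muscles. Benjamini-Hochberg adjustment ran over all genes tested, and a call needed an adjusted p under 0.05 and over 1.5-fold. A trend needed a BIC gain of 6 over no trend, and a sigmoid a further 2 over a line. Late trends had an inflection after 21 months, and an inflection fitted between neighbouring sampled ages cannot be placed within that gap. Correlations used 100000 permutations (scipy 1.17.1). Scripts were tested on simulated data. Alternatives were other scalings, filters, tools (edgeR, DESeq2 1.42.0), thresholds, weights, covariates, reference ages and left-out libraries. The fibre score of a library is the mean log2 CPM of slow fibre markers minus that of fast fibre markers. Each mean was standardised over the libraries of the fit before subtraction, and the difference again after it.

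The members and gene lists were chosen with earlier results of these data known. Named genes are the members, 12 chosen relatives and targets, the 3 genes of each list with the largest change among those called, of which some are described, and the 3 genes most like each member.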

Additional observations from a re-analysis of the deposited data

Results flagged for a closer look

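Single libraries were screened only in groups of 9 or 10 libraries, which were those of the gastrocnemius at 6, 21 and 24 months. With the 8 members this made 24 sets of values that share libraries, and chance sets about 1 set in 20 apart. In these, 4 single libraries lay far from the rest of their group. The larger groups of this and the other muscles were not screened. At 21 months replicate 7 had 5.142 log2 CPM of Esrra, with the nearest other library at 5.747, and replicate 8 had 4.944 of Gabpa, with the nearest at 5.566. At 24 months replicate 2 had -2.531 log2 CPM of Esrrb against -1.485 in the nearest library, and replicate 0 had 5.222 of Gabpa against 5.936.

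Changes from 6 to 27 months differed between muscles by the interaction test of limma-voom for 3 members. For Esrra the difference was -0.6942 for gastrocnemius minus diaphragm and -0.7366 for soleus minus diaphragm. The change of Esrrg differed by -0.7064 for soleus minus diaphragm and by -0.8674 for soleus minus gastrocnemius. For Gabpa it was 1.084 for gastrocnemius minus diaphragm, -0.718 for soleus minus gastrocnemius and -0.8592 for tibialis anterior minus gastrocnemius.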

How the results depend on the processing

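Esrra in gastrocnemius and soleus and Esrrg in soleus kept their direction at 27 months under every alternative run, and Esrrg in soleus lost its call only with the 2-fold threshold. The threshold of 1.5-fold set most counts, and Ppargc1a and Esrra in tibialis anterior and Gabpa in diaphragm and gastrocnemius lay close to it. Depth limited Esrrb. The cause of the changes listed here was not tested, beyond the thresholds' own construction.

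Members called at 27 months were 0 in diaphragm, 1 in gastrocnemius, 2 in soleus and 2 in tibialis anterior. With no fold threshold they were 3, 5, 6 and 6, and with a 2-fold threshold 0 in each limb muscle. In diaphragm 1 was called against 9 months and 1 with sample quality weights. In soleus 1 was called with the slow minus fast fibre score as a covariate. In tibialis anterior 1 was called against 9 months, 1 with the replicate block and 1 with quality weights, and 0 with DESeq2, edgeR, the fibre score, total-count or upper-quartile scaling. With total-count scaling the single call in gastrocnemius was Gabpa, higher, in place of Esrra. Leaving out 1 library gave 0 to 1 in diaphragm, 1 to 2 in gastrocnemius, 2 to 2 in soleus and 0 to 2 in tibialis anterior.

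At 24 months, where 0, 1, 1 and 0 were called, no fold threshold gave 1, 4, 2 and 4, the 2-fold threshold 0 in gastrocnemius and soleus, total-count scaling 2 in gastrocnemius, and quality weights and the fibre score 0 each in soleus. Over 9, 12, 18 and 21 months together, no fold threshold gave 4, 2, 6 and 3 calls in these muscles in place of 0. A member is counted there once per age, and at 9 months the number was 0 in each muscle.

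For the difference in change, gastrocnemius minus diaphragm (2 members), the 2-fold threshold, the clock gene score, quality weights and total-count scaling each gave 1. Soleus minus diaphragm (2) gave 0 at 2-fold, 5 with no fold threshold, 1 with the fibre score and 0 with total-count scaling. Tibialis anterior minus diaphragm (0) gave 2 with no fold threshold. Soleus minus gastrocnemius (2) gave 0 at 2-fold, 4 with no fold threshold and 1 with quality weights. Tibialis anterior minus gastrocnemius (1) gave 0 at 2-fold and 3 with no fold threshold. Tibialis anterior minus soleus (0) gave 1 each with RLE size factors, no fold threshold, quality weights, total-count and upper-quartile scaling. At 6 months total-count scaling moved tibialis anterior minus diaphragm from 2 to 4 and tibialis anterior minus soleus from 4 to 2.

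In gastrocnemius 3 members in place of 5 had a trend with a BIC difference of 10, and 3 with total-count scaling. With total-count scaling the pathway list genes called moved from 47 to 15 in gastrocnemius, 47 to 23 in soleus and 36 to 16 in tibialis anterior, and the members correlated with the oxidative phosphorylation score from 5 to 3 in gastrocnemius and 6 to 3 in soleus.

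Signs turned with total-count scaling for the gastrocnemius changes of Ppargc1a (0.00525), Esrrb (0.0142), Esrrg (0.269) and Tfam (0.280), for Tfam in soleus (9.99e-04), and in tibialis anterior for Ppargc1b (0.0574), Esrrb (0.0857), Esrrg (0.0171), Nrf1 (0.225), Tfam (0.233) and Gabpa (0.0113). The correlations with the score turned to -0.0498 for Tfam in diaphragm, 0.00289 for Esrrg in gastrocnemius and -0.108 for Tfam in tibialis anterior. Against 9 months Esrra in diaphragm was 0.0974 and Esrrb in tibialis anterior 0.0831, and with the fibre score Esrrb in soleus was 0.0753. Tfam in gastrocnemius, near 0, was 1.23e-04 with the clock gene score, 0.00208 with edgeR, 0.00268 with the replicate block, 0.0129 with quality weights and 0.0100 with upper-quartile scaling. Leaving out 1 library moved it between -0.0299 and 0.0349, and Esrrg in gastrocnemius between -0.116 and 0.0282. Without the 2 farthest libraries the correlation of Esrrg in diaphragm was 0.0204, and without replicate 11 of 18 months, chosen after the data were seen, the 18-month change of Esrrg in diaphragm was 0.0341.

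The labels do not say that a replicate number marks an animal, and each pair of muscles or ages held same-numbered libraries with a negative correlation of deviations, so the numbers were not used as pairs. Between diaphragm, soleus and tibialis anterior, however, the median correlation was 0.13 to 0.20 for the same number and -0.03 to -0.01 for other numbers, and a library correlated best with its own number in 36 of 83, 42 of 83 and 43 of 84 cases, a hint from the data of shared animals. With the gastrocnemius this was 13 of 72 to 19 of 73. Tests between muscles treated libraries as independent. Within a muscle the replicate block was the replicate number as a fixed term across ages. With it the count in tibialis anterior at 27 months moved from 2 to 1. Between muscles it was age and number as a random block (consensus correlation 0.0622). No other count moved by over 1.5 times with either form.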
